A study of Mus musculus with 22 samples.

Results

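The genes described here encode the subunits of oxidative phosphorylation and some of their assembly factors, read in RNA from whole mouse lung. Members were the protein-coding genes whose symbols start with Nduf, Sdha to Sdhd, Uqcr, Cox4 to Cox8, Atp5 or mt-, with Ndufa4l2 and Cox4i2 left out. The rule used no measured value and took 109 of the 54532 genes in the table, 96 encoded in the nucleus and 13 in mitochondrial DNA. It also takes 8 Ndufaf and 4 Sdhaf assembly factors, the supercomplex factor Cox7a2l and the coupling factor Atp5s, while a subunit with another name, such as Cyc1, falls outside it. Atp5o is counted under a further identifier, which had 9.36 counts in all, in 2 libraries, and was not tested. Values given for Atp5o are those of the tested entry. The mice were young C57BL6/j males kept for 8 days in normoxia or hypoxia and given either vehicle or ABT-263 at 50 mg/kg per day. ABT-263 (navitoclax) inhibits anti-apoptotic proteins of the BCL-2 family and is used to clear senescent cells. There were 5 libraries of normoxia with vehicle, which is the study's control, 6 of normoxia with ABT-263, 6 of hypoxia with vehicle and 5 of hypoxia with ABT-263. The sources used here do not say how many animals stand behind a library, so p-values measure the spread between libraries.

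Oxidative phosphorylation couples the oxidation of NADH and succinate to the synthesis of ATP in the inner mitochondrial membrane. Complex I takes electrons from NADH and complex II from succinate, both pass them through ubiquinone to complex III and cytochrome c, complex IV hands them to oxygen, and complex V uses the resulting proton gradient to make ATP. Complexes I, III, IV and V are built from products of both genomes: mitochondrial DNA encodes catalytic and membrane-embedded subunits, and the nucleus encodes the rest as well as all of complex II. The complexes are found in nearly every cell type of the lung, and complex IV also has isoforms typical of heart and skeletal muscle or of testis.

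Library totals ran from 11509007 to 15744193 counts. Replicate 1 of normoxia with ABT-263, of hypoxia with vehicle and of hypoxia with ABT-263 carry a treatment tag that goes against the sample title, and groups follow the titles. The 10 lung markers were present in every group, with summed levels between 69702 and 128887 CPM (read counts scaled to a common library size). Normoxia with ABT-263 replicate 2 stood apart, with a summed level of 9 skeletal muscle markers of 2705 CPM against 28.5 to 57.2 in the other libraries. The summed level of 6 erythroid markers was 3662 to 6902 CPM in normoxia and 8823 to 14944 CPM in hypoxia. All 6 rose in both hypoxia comparisons, against 13.5% of all genes with vehicle and 17.9% with ABT-263. The summed level of 7 lymphocyte markers was 111 to 266 CPM in normoxia and 67.7 to 135 CPM in hypoxia. Its group median was lower under ABT-263, at 119 against 188 CPM in normoxia and 76.9 against 112 CPM in hypoxia. For the drug, 5 of these 7 genes were lower in normoxia, 2 in hypoxia and 7 averaged over oxygen levels (edgeR, adjusted p under 0.05). Of all genes 0.427%, 0.186% and 1.31% were lower, in the same order. In hypoxia against normoxia, 5 of the 7 fell with vehicle (71.4%, against 12.8% of all genes) and 4 with ABT-263 (57.1%, against 21.3%). Of 7 pericyte and smooth muscle markers 5 rose with vehicle (71.4%). With ABT-263 4 rose (57.1%) and 1 fell (14.3%), the smooth muscle gene Myh11 (−0.41). Pdgfrb, at 0.06 and 0.09, passed in neither comparison. The part of these cell types in the results below was not tested. In bulk RNA, a change in the number of cells of a type and a change in RNA per cell cannot be told apart.

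In vehicle-treated mice, many nuclear oxidative phosphorylation genes were moderately higher after 8 days of hypoxia. Of the 93 nuclear members that passed the filter on low counts, 35 rose, 1 fell and 57 did not pass the test (edgeR quasi-likelihood test, adjusted p under 0.05 over all 16638 genes). That is 37.6% higher, against 13.5% of all genes, and 1.08% lower, against 12.8% of all genes. The median log2 fold change of the nuclear members was 0.24, that of all genes −0.00, and 81 of the 93 were above 0. Changes ran from −0.33 for Sdha to 0.57 for Ndufaf6. None of the 7 mitochondrially encoded members that could be tested passed. The number of nuclear calls depended on single libraries. It was 16 without hypoxia vehicle replicate 6, 18, 19 and 17 without normoxia vehicle replicates 2, 4 and 5, and 53 without normoxia vehicle replicate 1. Without the 3 libraries with conflicting labels 24 rose and 1 fell, and with treatment read from the tag 46 rose and 1 fell.

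**Figure D1:**
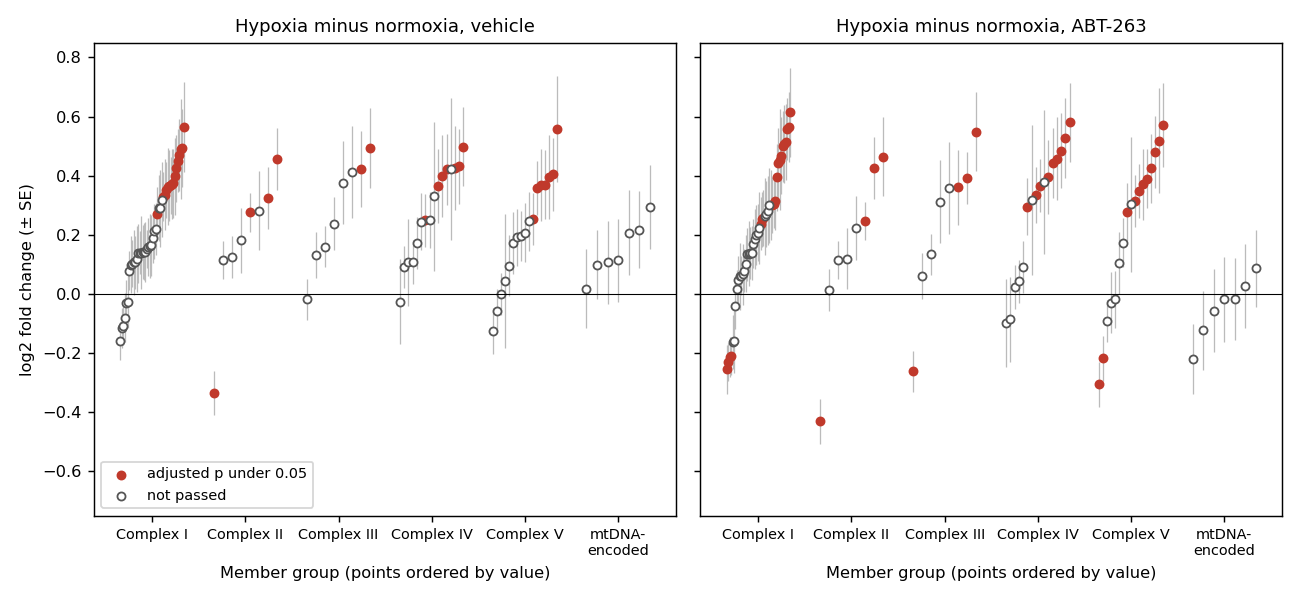
Log2 fold change of hypoxia against normoxia (± SE) for every tested member, by complex, in vehicle-treated mice (left) and ABT-263-treated mice (right). Filled points passed the test and open points did not. Most nuclear members lie above 0 in both panels, with Sdha at −0.33 and −0.43 as the lowest point, and no mitochondrially encoded member is filled.

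Complex I has 7 core subunits encoded in the nucleus, which carry the flavin and iron-sulfur centres, and many accessory subunits around them. Of 29 accessory subunits 12 rose (41.4%, against 13.5% of all genes) and none fell in vehicle-treated mice. Ndufa8 was at 116, 97.8, 88.3, 82.9 and 93.0 CPM in normoxia with vehicle, and in hypoxia its lowest, median and highest values were 105, 116 and 145 CPM. The hypoxic libraries were mostly higher and the groups overlapped through normoxia vehicle replicate 1 (log2 fold change 0.33 ± 0.08 SE, adjusted p = 0.00462 by edgeR). The next smallest p among the accessory subunits were those of Ndufb6 (0.47 ± 0.12), Ndufa11 (0.42 ± 0.11) and Ndufb9 (0.49 ± 0.13), all of the membrane arm. Of the 50-base words in their transcripts 34.1%, 12.5% and 23.4% also occur in other annotated genes, and such members are less certain. Of the 7 nuclear core subunits 1 rose, Ndufv2, which carries an iron-sulfur cluster of the NADH-oxidising module (0.35 ± 0.10). That 1 call is 14.3% of the core subunits, near the 13.5% of all genes. The median of the core subunits was −0.03, against 0.27 for the accessory subunits. Core transcripts were also longer, with a median length of 1623 bases against 763, and the change went with length, as described below.

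The assembly factors of complex I are not part of the finished enzyme, and 3 of 8 rose (37.5%, against 13.5% of all genes). Ndufaf2, which acts at a late step of assembly, was at 20.6, 18.5, 19.0, 16.1 and 16.4 CPM in normoxia with vehicle and at 21.3 to 29.2 CPM in hypoxia, with a median of 24.3. Every hypoxic library was above every normoxic one (0.45 ± 0.11, adjusted p = 0.00282 by edgeR). Ndufaf6 had the largest rise of all members, 0.57 ± 0.15, at a low level of 8.28 CPM over all libraries, and its groups did not overlap. Ndufaf4 rose by 0.37 ± 0.10.

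Complex II, succinate dehydrogenase, has 4 subunits, all nuclear, and they moved apart. Sdha, the flavoprotein that oxidises succinate (chromosome 13, 74322254 to 74350280, minus strand, GRCm38), was at 198, 227, 205, 209 and 213 CPM in normoxia with vehicle. In hypoxia with vehicle its lowest, median and highest values were 155, 170.4 and 177 CPM. The groups did not overlap, with means of 210.4 ± 10.9 CPM (SD, n = 5) in normoxia and 167 ± 9.05 CPM (SD, n = 6) in hypoxia and a log2 fold change of −0.33 ± 0.07 SE (adjusted p = 0.00179 by edgeR). Sdha was the 1 nuclear member that fell. Sdhd, a membrane anchor of the complex (chromosome 9, 50596357 to 50603812, minus strand), went the other way. Its values were 203, 165, 175, 164 and 148 CPM in normoxia with vehicle and 197 to 286 CPM, median 228, in hypoxia. The groups overlapped by the lowest hypoxic library (0.46 ± 0.11, adjusted p = 0.00238). Sdhb, the iron-sulfur subunit, was at 104 ± 6.99 CPM in normoxia and 114 ± 9.70 CPM in hypoxia (0.13 ± 0.07, not passed). Sdhc, the other anchor, was at 119 ± 8.69 and 129 ± 10.01 CPM (0.11 ± 0.06, not passed). Per kilobase of transcript, the level over all libraries was 163 CPM for Sdhd, 94.7 for Sdhb, 64.9 for Sdha and 39.1 for Sdhc. Of the 4 assembly factors of complex II 2 rose (50%, against 13.5% of all genes). One was Sdhaf2, which helps attach flavin to the Sdha protein. It was at 54.2, 52.4, 51.0, 52.1 and 53.8 CPM in normoxia with vehicle and at 58.7 to 68.2 CPM, median 63.5, in hypoxia, with no overlap (0.28 ± 0.07, adjusted p = 0.00304). The other was Sdhaf1, at 0.32 ± 0.10, whose annotated transcript shares 69.0% of its 50-base words with another gene and is less certain.

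**Figure D2:**
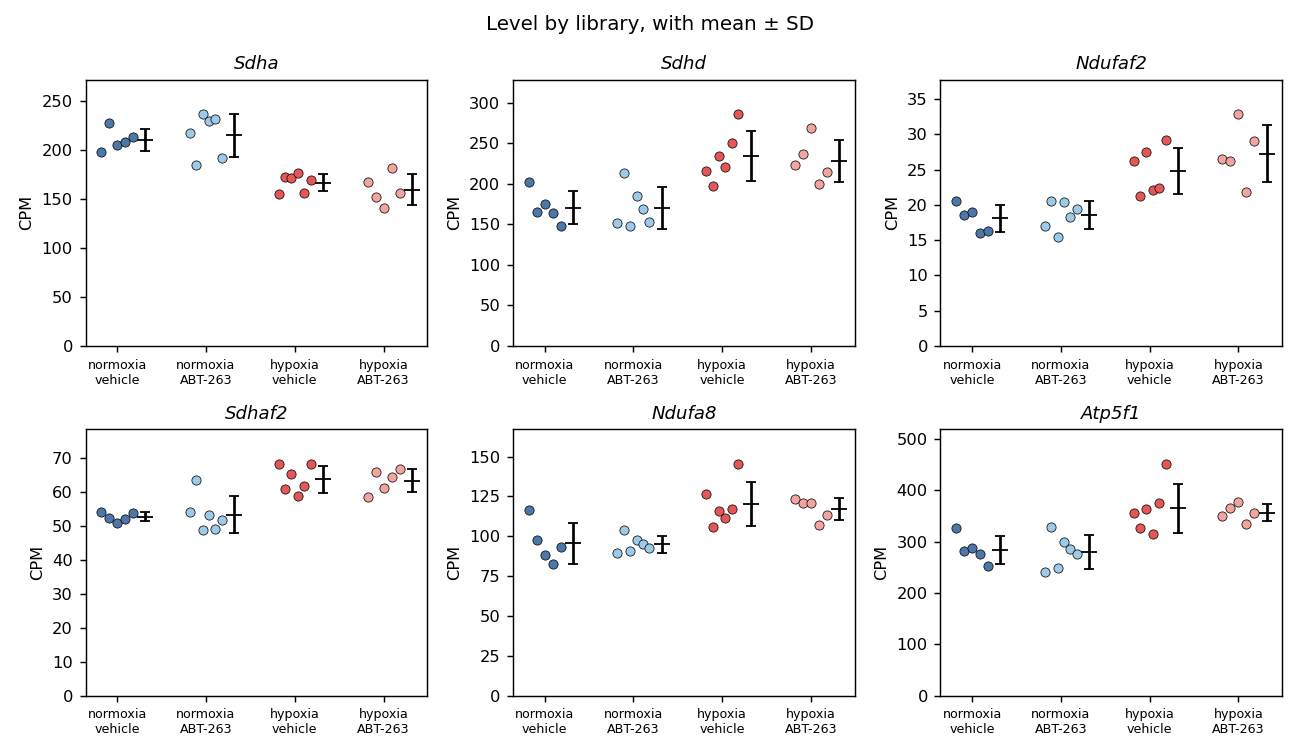
Level in CPM of the 6 nuclear members with the smallest p for hypoxia with vehicle, 1 point per library, with the mean ± SD of each group beside the points. Sdha is lower in both hypoxia groups (155 to 177 and 141 to 182 CPM) than in the control group (198 to 227 CPM), and the other 5 genes are higher in hypoxia.

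Complex III passes electrons from ubiquinol to cytochrome c, and 2 of its 8 nuclear members rose in vehicle-treated mice (25%). They were Uqcrh, the hinge protein that binds cytochrome c1 (0.49 ± 0.14), and Uqcrq (0.42 ± 0.13). That share lay between 13.5% of all genes and 30.2% of other protein-coding genes with transcripts of up to 1000 bases. Of 11 widely expressed nuclear subunits of complex IV, the oxidase that reduces oxygen, 6 rose (54.55%) and none fell. They were Cox7b (0.50 ± 0.13), Cox4i1, Cox6c, Cox7a2, Cox7c and Ndufa4. The last was counted here because it is a subunit of this complex despite its name. Cox7a2l, counted here as a supercomplex factor, rose as well at the RNA level. Among 16 subunits of complex V, the ATP synthase, 7 rose (43.75%) and none fell. Atp5f1, which encodes subunit b of the stalk that holds the head still, was at 326, 282, 287, 275 and 252 CPM in normoxia with vehicle and at 316 to 451 CPM, median 360.0, in hypoxia. Normoxia vehicle replicate 1 was above the lowest hypoxic library, so the groups overlapped (0.36 ± 0.09, adjusted p = 0.00497 by edgeR). The other 6 were Atp5c1, Atp5e, Atp5j2, Atp5k, Atp5mpl and Atp5o. The alpha and beta subunits, which form the catalytic head, did not pass, with Atp5a1 at −0.13 ± 0.08 and Atp5b at −0.00 ± 0.07.

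The tissue-restricted isoforms of complex IV did not pass in either hypoxia comparison. Cox6a2, Cox7a1 and Cox8b, typical of heart and skeletal muscle, were at 50.2, 25.8 and 13.5 CPM over all libraries, beside 208, 169 and 197 CPM for the widely expressed Cox6a1, Cox7a2 and Cox8a. Per kilobase these levels were 73.9, 65.7 and 37.6 CPM for the muscle isoforms and 364, 257 and 357 CPM for their counterparts. In hypoxia with vehicle the muscle isoforms stood at 0.11 ± 0.15, 0.33 ± 0.25 and 0.42 ± 0.24. Of the counterparts, Cox7a2 rose (0.43 ± 0.13), and Cox6a1 and Cox8a, at 0.11 ± 0.07 and 0.09 ± 0.07, did not pass. Transcripts of heart muscle were present in every library, with a summed level of 13 cardiac markers between 939.6 and 2189 CPM. Its median with vehicle was 1663 CPM in normoxia and 1423 CPM in hypoxia, and with ABT-263 1485 and 1164 CPM. In hypoxia 2 of the 13 fell with vehicle (15.4%, against 12.8% of all genes). With ABT-263 1 rose and 4 fell (30.8%, against 21.3% of all genes). The summed level of 9 brown fat markers had a median with vehicle of 22.01 CPM in normoxia and 38.28 CPM in hypoxia. With ABT-263 the medians were 38.12 and 29.14 CPM. Of the 7 brown fat markers tested, 2 rose with vehicle, and 1 rose and 1 fell with ABT-263. Normoxia with ABT-263 replicate 2, rich in skeletal muscle markers, had the highest Cox6a2, Cox7a1 and Cox8b of its group (63.8, 35.9 and 18.4 CPM). The part of heart muscle, skeletal muscle or brown fat in the isoform levels was not tested. The testis isoform Cox6b2 was at 14.4 CPM and did not pass, beside 262.9 CPM for Cox6b1 (0.25 ± 0.10, not passed with vehicle). The testis isoforms Cox7b2 and Cox8c had 29 and 5 counts in all libraries together and were not tested.

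In mice given ABT-263 the hypoxia comparison rests on separate libraries and gave these values. Of the nuclear members 41 of 93 rose and 8 fell, or 44.1% and 8.60%, against 17.9% of all genes higher and 21.3% lower. The median was 0.26, against −0.02 for all genes. Without normoxia ABT-263 replicate 2, 51 rose and 7 fell, without the 3 libraries with conflicting labels 30 and 7, and with treatment read from the tag 34 and 8. The members that rose in both comparisons numbered 33, which is 94.3% of the 35 and 80.5% of the 41. One fell in both, Sdha, and none was called in opposite directions. Across the 93 members the log2 fold changes in both comparisons had Pearson's r = 0.92 and Spearman's rho = 0.91, and across 14580 other protein-coding genes r = 0.72 and rho = 0.75. Genes are not independent replicates, and no test was made of these values. Ndufaf2 had the smallest p among those that rose. Its normoxic values ran from 15.5 to 20.6 CPM with a median of 18.8, and its hypoxic values were 26.5, 26.2, 32.8, 21.9 and 29.0 CPM, without overlap (0.56 ± 0.10, adjusted p = 0.000192 by edgeR). Ndufs4, an accessory subunit of the arm that binds NADH, went from 63.5 to 87.2 CPM, median 70.3, to 109, 116, 120, 89.8 and 99.4 CPM, without overlap (0.56 ± 0.12, adjusted p = 0.000604). Uqcrb, a small subunit of complex III, went from 118 to 147 CPM, median 136, to 179, 191, 178, 163 and 169 CPM, without overlap (0.39 ± 0.09, adjusted p = 0.00120). With offsets for transcript length and GC content Uqcrb stood at −0.01 and no longer passed, and 43.4% of the 50-base words of its transcript are shared with other annotated genes. Others with small p were Cox7b (0.58 ± 0.13), Cox7a2l (0.37 ± 0.09), Ndufb6 (0.50 ± 0.12), Sdhd (0.43 ± 0.10), Uqcrh (0.55 ± 0.13), Ndufaf6 (0.61 ± 0.15), Atp5k (0.57 ± 0.14), Ndufs6 (0.52 ± 0.13) and Atp5o (0.48 ± 0.12).

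The 8 members that fell with ABT-263 all have transcripts of over 1000 bases. Sdha went from 185 to 236 CPM, median 223, in normoxia to 168, 152, 141, 182 and 157 CPM in hypoxia, without overlap (−0.43 ± 0.08, adjusted p = 8.49e-05 by edgeR). Atp5a1, the alpha subunit of the ATP synthase head, fell by 0.31 ± 0.08, and Atp5d, the delta subunit of its central stalk, by 0.22 ± 0.08. Atp5d lost its call in 8 of 35 alternative analyses, 4 of them with a single library left out. Uqcrc1, a core protein of complex III, fell by 0.26 ± 0.07. Of complex I, Ndufv1, which binds NADH and flavin, fell by 0.21 ± 0.06, Ndufs1, its largest iron-sulfur subunit, by 0.21 ± 0.07, Ndufa10 by 0.23 ± 0.07 and the assembly factor Ndufaf7 by 0.26 ± 0.08. In vehicle-treated mice these 7, Sdha apart, stood between −0.16 and −0.02 and did not pass. With ABT-263, Ndufs1 and Ndufaf7 each lost their call in 3 of the 35 alternative analyses, Ndufv1 in 2 and Uqcrc1 in 1. Ndufs1 and Ndufaf7 kept it in 21 and 20 of 22 analyses with a single library left out. Whether the response to hypoxia differed between vehicle and ABT-263 was tested by the interaction term, and none of the 100 members passed.

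The size of the change went with transcript length, in the members and in other genes, though not at every length in the members. Among the nuclear members, transcripts of up to 1000 bases rose in 21 of 51 cases in vehicle-treated mice (41.2%) with a median of 0.32, and longer ones rose in 14 of 42 (33.3%) and fell in 1, with a median of 0.14. Other protein-coding genes showed the same order. Of 841 with transcripts of up to 1000 bases 254 rose (30.2%) and 43 fell, with a median of 0.23, and of 13736 longer ones 1788 rose and 1993 fell, with a median of −0.03. In mice given ABT-263 the short members rose in 27 of 51 cases and the other short genes in 299 of 841 (35.6%), with medians of 0.30 and 0.22. The 6 members with transcripts over 3000 and up to 5000 bases went against the trend. Their medians were 0.24 with vehicle and 0.21 with ABT-263, against −0.06 and −0.07 for other genes of that length. Across the 93 members the change correlated with log2 transcript length at Pearson's r = −0.39 with vehicle and −0.42 with ABT-263 (Spearman's rho −0.40 and −0.43), and across 14580 other protein-coding genes at −0.16 and −0.13 (rho −0.21 and −0.16). Single libraries followed the same course. In normoxia vehicle replicate 1, the median deviation of the nuclear members from their mean over all libraries was 0.14 on the log2 scale and that of the other short transcripts 0.12, while the other 4 libraries of that group were at −0.20 to −0.12 and −0.17 to −0.11. In hypoxia vehicle replicate 6 the values were 0.42 and 0.32, the highest of all libraries. The 2 measures were also both lowest in normoxia with ABT-263, where replicates 1 and 3 stood at −0.30 and −0.29 for the members and at −0.22 and −0.26 for the other short transcripts.

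**Figure D3:**
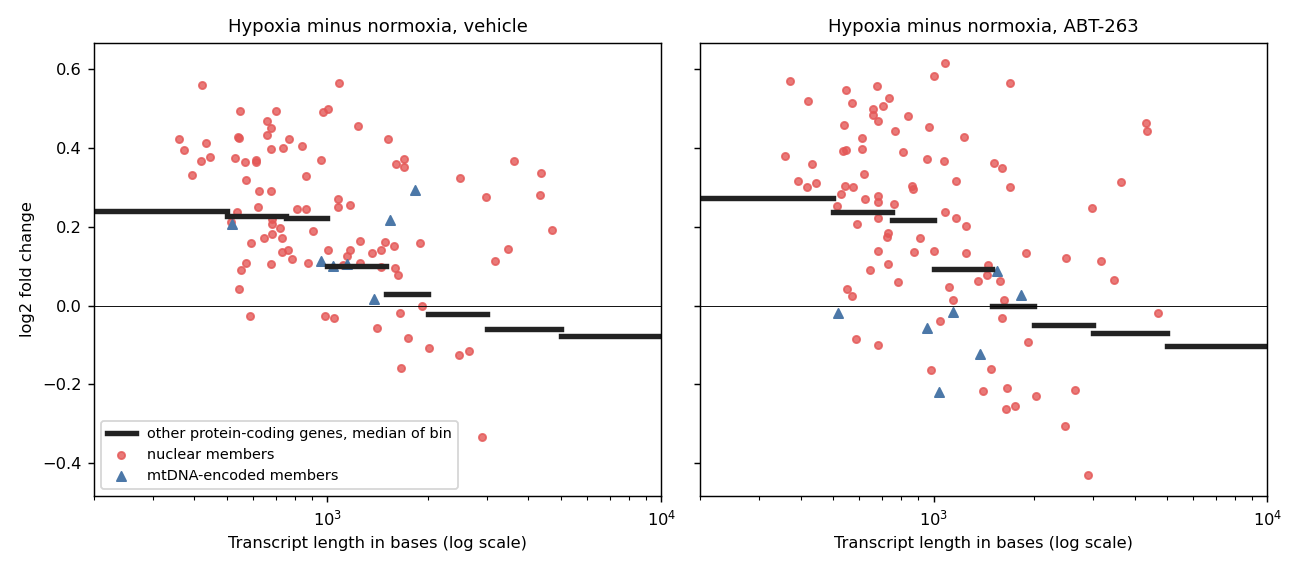
Log2 fold change of hypoxia against normoxia by transcript length (log scale) for nuclear members (circles) and mitochondrially encoded members (triangles), with bars at the median of other protein-coding genes in each length bin. The bars fall from 0.24 for the shortest transcripts to −0.08 for the longest with vehicle and from 0.27 to −0.10 with ABT-263, and the members spread around and above them.

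**Figure D4:**
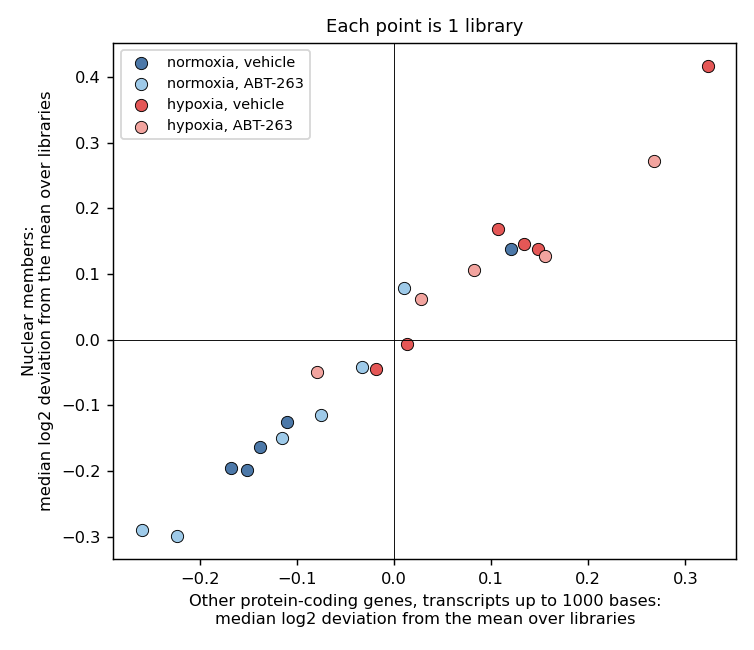
Median log2 deviation of the nuclear members (vertical) against that of other protein-coding genes with transcripts of up to 1000 bases (horizontal), 1 point per library. The points run along a diagonal within and between groups, from −0.30 to 0.42 for the members.

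With offsets that remove each library's smooth trend with transcript length, an analysis chosen after the pattern was seen, 25 nuclear members rose and 4 fell in vehicle-treated mice, or 26.9% and 4.30%, against 13.7% and 12.9% of all genes. The median of the members became 0.09. In mice given ABT-263, 33 rose and 12 fell, or 35.5% and 12.9%, against 19.7% and 19.9% of all genes, with a median of 0.08. With a further step for GC content the counts were 28 and 1 with vehicle and 36 and 7 with ABT-263, and the medians 0.12 and 0.10. Sdha, Sdhd, Ndufaf2, Sdhaf2, Ndufa8 and Atp5f1 passed in all 35 alternative analyses of the vehicle comparison. Whether length itself, the state of the RNA or the cells in the sample lies behind the trend was not tested.

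The 13 mitochondrially encoded members fall into 7 with many counts and 6 with nearly none. In the table mt-Co2, mt-Co3, mt-Atp6, mt-Atp8 and mt-Nd4l are listed at 0 in all 22 libraries, and mt-Nd3 has 12 counts in all. These 6 lie in 1 stretch of the mitochondrial genome, from base 7013 to base 10173. Nearly identical copies of 5 of them, and of parts of mt-Co1 and mt-Nd4, are annotated as pseudogenes on chromosome 1 of GRCm38, from 24611535 to 24616197. Of the 50-base words in the mt-Co2 transcript 100% also occur in another annotated gene, of mt-Co3 99.9%, of mt-Atp6 99.5%, of mt-Nd4l 98.8% and of mt-Nd3 98.0%. For mt-Atp8, which lies between mt-Co2 and mt-Atp6, no copy is annotated and the share is 0%. The copies were listed at 0 to 14 counts over all libraries. The first 60 bases of mt-Co2 and of its copy Gm28661 are shown, with those of mt-Nd3 and of its copy Gm28438, because reads from such stretches fit both genes. Capitals mark the 1 base in which mt-Nd3 and its copy differ over 345 aligned bases, T3C counted from the start of the transcript (GENCODE M21):
mt-Co2: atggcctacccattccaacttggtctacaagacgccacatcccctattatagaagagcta
Gm28661: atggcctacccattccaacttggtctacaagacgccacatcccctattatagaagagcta
mt-Nd3: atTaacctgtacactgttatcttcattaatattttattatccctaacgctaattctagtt
Gm28438: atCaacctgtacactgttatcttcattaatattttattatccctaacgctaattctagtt
The first pair is identical over all 681 aligned bases. Whether these transcripts were present in the lung cannot be read from such counts, and their levels were not analysed further. How the authors' counting treated reads that fit several places is not given in the sources used here. In mt-Nd4 and mt-Co1 62.2% and 51.1% of words are shared, and their counts may be incomplete. mt-Nd1, mt-Nd6 and mt-Cytb share none, and mt-Nd2 and mt-Nd5 8.19% and 7.61%.

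The 7 tested mitochondrial transcripts did not pass in either hypoxia comparison by edgeR. One had an unadjusted p under 0.05 with vehicle and none with ABT-263, and DESeq2 and limma-voom called none. In vehicle-treated mice all 7 were above 0, from 0.02 ± 0.13 for mt-Nd4 to 0.29 ± 0.14 for mt-Nd5, which like mt-Nd1, mt-Nd2, mt-Nd4 and mt-Nd6 encodes a proton-pumping or membrane subunit of complex I. mt-Nd1 stood at 0.11 ± 0.14, mt-Nd2 at 0.10 ± 0.12, mt-Nd6 at 0.21 ± 0.14, mt-Cytb, the cytochrome b of complex III, at 0.11 ± 0.14, and mt-Co1, the catalytic subunit of complex IV, at 0.22 ± 0.13. In mice given ABT-263 the median was −0.02, with mt-Nd2 lowest (−0.22 ± 0.12) and mt-Co1 highest (0.09 ± 0.13). mt-Co1 was at 13196, 9299, 13975, 9863 and 10593 CPM in normoxia with vehicle and at 10377 to 16344 CPM, median 13216, in hypoxia with vehicle. In normoxia with ABT-263 it was at 9881 to 13188 CPM, median 10741, and in hypoxia with ABT-263 at 12317, 12662, 13316, 9314 and 11208 CPM. All 4 groups overlapped, and the spread within each was wide beside the differences between them. With length and GC offsets mt-Nd2 and mt-Nd4 passed as lower in hypoxia with vehicle, at −0.27 and −0.31, and 5 of the 7 passed as lower in mice given ABT-263.

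As shares of all counts, the nuclear members took 1.06% ± 0.0888 (SD, n = 5) in normoxia with vehicle and 1.24% ± 0.128 (SD, n = 6) in hypoxia with vehicle. With ABT-263 the shares were 1.04% ± 0.109 (SD, n = 6) and 1.24% ± 0.110 (SD, n = 5). The mitochondrially encoded members took 4.73% ± 0.849, 5.16% ± 0.848, 4.56% ± 0.493 and 4.50% ± 0.671 in the same order, without the genes listed at 0. Over single libraries the nuclear share ran from 0.924% to 1.45% and the mitochondrial share from 3.53% to 6.35%. Hypoxia vehicle replicate 3 had a nuclear share of 1.23% with the lowest mitochondrial share of its group, 3.94%, so the 2 shares did not always move together.

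**Figure D5:**
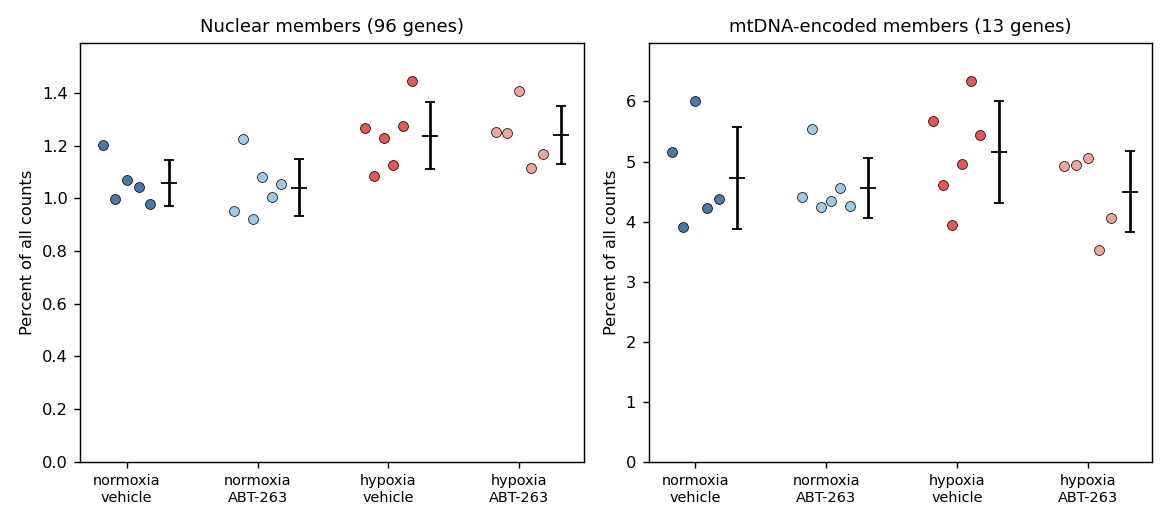
Percent of all counts taken by the 96 nuclear (left) and 13 mitochondrially encoded members (right), 1 point per library with the mean ± SD of each group. Nuclear shares are mostly higher in hypoxia, at about 1.24% against 1.06% and 1.04%, and mitochondrial shares overlap across all groups.

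ABT-263 moved no member past the test at either oxygen level. In normoxia 0 of 93 nuclear and 0 of 7 mitochondrial members passed by edgeR, against 0.535% of all genes, with 2 and 0 members and 2166 of the 16638 genes at an unadjusted p under 0.05. In hypoxia the counts were again 0, against 0.301% of all genes, with 1 and 2 members and 2385 of all genes at an unadjusted p under 0.05. The interaction gave 0 members and 0% of all genes, with 2 and 0 members and 1546 of all genes at an unadjusted p under 0.05. Averaged over both oxygen levels 0 members passed, against 2.54% of all genes, with 2 and 1 members and 2883 of all genes at an unadjusted p under 0.05. DESeq2 and limma-voom also called no member in these 4 comparisons. For the interaction over all genes DESeq2 called 13 higher and 4 lower and limma-voom 0. The smallest p in normoxia was that of Ndufaf3, a complex I assembly factor, at 29.7, 25.6, 21.9, 24.3 and 26.3 CPM with vehicle and 27.6 to 43.5 CPM, median 31.2, with ABT-263 (0.35 ± 0.11, adjusted p = 0.140). Atp5a1 followed at 0.18 ± 0.08 and Ndufs4 at −0.20 ± 0.12. In hypoxia it was that of Sdhaf1, with 25.6 to 33.5 CPM and a median of 29.2 with vehicle and 26.5, 25.8, 30.5, 20.2 and 21.9 CPM with ABT-263 (−0.22 ± 0.10, adjusted p = 0.322). Uqcrc1 followed at −0.13 ± 0.07 and Ndufaf8 at −0.20 ± 0.11. The 3 smallest p of the interaction were those of Uqcrc1 (−0.24 ± 0.10), Ndufaf3 (−0.32 ± 0.15) and Atp5a1 (−0.18 ± 0.11), and those of the average over oxygen levels were Ndufaf3 (0.18 ± 0.08), Ndufaf8 (−0.17 ± 0.08) and Ndufb4 (−0.23 ± 0.12). The mitochondrial transcripts were all below 0 for ABT-263 in hypoxia, from −0.36 ± 0.14 for mt-Nd6 to −0.17 ± 0.13 for mt-Co1. The median standard error of a nuclear member was 0.101 or 0.102 for each single comparison and 0.144 for the interaction, which limits the size of change that could be detected.

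Other genes of the mitochondrion did not all follow the subunits. Over all genes, 13.5% rose and 12.8% fell with vehicle, and 17.9% rose and 21.3% fell with ABT-263. Of 17 enzymes of the citric acid cycle and pyruvate dehydrogenase, which feed electrons to the chain, none rose and 2 fell with vehicle (median −0.05). Those 2 are 11.8%, near the share of all genes. With ABT-263 none rose and 6 fell (35.3%, median −0.07). Transcripts of these enzymes are long, with a median of 2544 bases against 875 for the nuclear members. Of 22 genes for regulators and machinery of mitochondrial gene expression none rose and 1 fell with vehicle (4.55%, median 0.01). With ABT-263 3 rose and 3 fell (13.6% each, median −0.00), both below the shares of all genes. Of 36 other carriers, subunits and assembly factors outside the naming rule, 9 rose (25%) and none fell with vehicle. With ABT-263 11 rose (30.6%) and 1 fell (2.78%). Of 78 mitochondrial ribosomal proteins 23 rose (29.5%) and none fell with vehicle (median 0.18), and 29 rose (37.2%) and 4 fell (5.13%) with ABT-263 (median 0.16). Cytosolic ribosomal proteins, whose transcripts are also short, rose in 27 (30%) and fell in 2 (2.22%) of 90 cases with vehicle (median 0.24). With ABT-263 they rose in 55 (61.1%) and fell in 2 (2.22%), with a median of 0.34. Of 10 mitochondrial genes listed for hypoxia, 7 rose (70%) and 1 fell (10%) with vehicle, and 7 rose (70%) and 2 fell (20%) with ABT-263. They include Bnip3, Bnip3l and Fundc1, which are not parts of the respiratory chain. Of the 2 genes left out of the naming rule, Ndufa4l2 rose in both comparisons (0.36 ± 0.12 and 0.44 ± 0.12). Cox4i2 did not pass with vehicle (0.08 ± 0.08) and rose with ABT-263 (0.33 ± 0.08).

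The promoters of these genes are known for sites of NRF1, of ETS factors such as GABP, and of YY1, which drive many nuclear respiratory genes. RefSeq windows of 300 bases (GRCm38.p6; 250 before the start and 50 after) were matched for 79 of the 96 nuclear members and for 27025 genes in all, and both strands were searched for exact letters. None of the 3 motifs contains another. The NRF1 letters, GCGCA directly followed by its reverse complement, occurred in 7 of the 79 (8.86%) and in 1.07% of all genes, the ETS letters CCGGAAG in 21 (26.6%) and in 9.93%, and the YY1 letters AAGATGGCG in 8 (10.1%) and in 1.64%. In vehicle-treated mice the median change was 0.17 in 7 tested members with the NRF1 letters and 0.23 in 70 without, 0.25 and 0.20 for the ETS letters, and 0.20 and 0.22 for the YY1 letters. The windows of Sdha and Sdhd are shown because these subunits of 1 complex moved in opposite directions, and those of Atp5k and Ndufa11 as members that rose and hold the NRF1 letters. Each is written 5′ to 3′ along its gene, with motif letters in capitals:
Sdha (chr13:74350191-74350490, minus strand): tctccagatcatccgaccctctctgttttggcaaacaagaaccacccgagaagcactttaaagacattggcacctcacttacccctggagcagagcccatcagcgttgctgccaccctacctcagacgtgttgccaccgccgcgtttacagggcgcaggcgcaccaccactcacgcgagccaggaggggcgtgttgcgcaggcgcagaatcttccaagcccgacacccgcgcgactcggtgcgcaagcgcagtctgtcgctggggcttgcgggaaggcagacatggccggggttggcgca
Sdhd (chr9:50603800-50604099, minus strand): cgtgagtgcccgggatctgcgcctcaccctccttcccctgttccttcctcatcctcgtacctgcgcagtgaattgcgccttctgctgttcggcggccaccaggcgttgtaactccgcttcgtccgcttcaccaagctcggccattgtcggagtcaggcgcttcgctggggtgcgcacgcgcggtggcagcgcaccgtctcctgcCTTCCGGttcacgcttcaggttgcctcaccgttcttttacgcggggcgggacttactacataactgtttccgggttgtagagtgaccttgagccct
Atp5k (chr5:108434350-108434649, minus strand): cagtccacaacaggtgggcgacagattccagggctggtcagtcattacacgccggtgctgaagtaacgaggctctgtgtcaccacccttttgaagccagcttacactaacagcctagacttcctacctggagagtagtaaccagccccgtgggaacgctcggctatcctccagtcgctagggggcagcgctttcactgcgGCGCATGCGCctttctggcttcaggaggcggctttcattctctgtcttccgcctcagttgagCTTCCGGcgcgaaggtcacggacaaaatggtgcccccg
Ndufa11 (chr17:56717512-56717811, plus strand): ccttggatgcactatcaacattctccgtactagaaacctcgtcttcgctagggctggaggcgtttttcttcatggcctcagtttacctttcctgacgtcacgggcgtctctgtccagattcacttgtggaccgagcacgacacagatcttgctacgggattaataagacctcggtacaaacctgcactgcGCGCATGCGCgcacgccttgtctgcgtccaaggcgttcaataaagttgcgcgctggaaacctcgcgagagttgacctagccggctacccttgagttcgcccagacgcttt
The window of Sdhd holds the ETS letters on the opposite strand, that of Atp5k the NRF1 letters and the ETS letters, and that of Ndufa11 the NRF1 letters. None of the 3 motifs was found in the window of Sdha, which says only that these letters are not in it.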

How the data were processed

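RNA of 22 lung libraries was sequenced after a stranded TruSeq mRNA preparation, per the labels' protocols. The authors deposited expected counts per gene; the submitters' processing notes name Trimmomatic, STAR, RSEM and GRCm38, without versions. How reads that fit several genes were treated is not given in the sources used here. Expected counts were rounded and filtered with filterByExpr (minimum count 10), leaving 16638 of 54532 genes, and one model of the 4 title groups was fitted in edgeR 4.0.16 under R 4.3.3 (TMM scaling, robust dispersions, quasi-likelihood tests). P-values are two-sided, with Benjamini-Hochberg adjustment across the 16638 genes and a threshold of 0.05. Standard errors are the log2 fold change divided by the square root of F. Levels are CPM with TMM factors. Library totals were 11509007 to 15744193 counts. Median standard errors of nuclear members were 0.101 or 0.102 for single comparisons, 0.144 for the interaction and 0.0718 for the average over oxygen levels.

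Transcript lengths, coordinates and shared 50-base words come from GENCODE M21, promoters from RefSeq. Library deviations used a pseudocount of 0.5 CPM. Members, lists and the rule for named genes (all mitochondrially encoded members, up to 12 nuclear members in each direction with the smallest p, the Sdh subunits and tissue-restricted isoforms) were chosen with earlier results of these data known. Replicate numbers follow sample order and pair no libraries. Every pair of libraries in a group differed by more than sampling noise. Alternatives were DESeq2 1.42.0, limma-voom (limma 3.58.1), RLE factors, library totals, other filters, the compared groups alone, libraries left out, treatment read from the tag, and offsets from a smooth trend (span 0.3) with transcript length and GC content, added after seeing the data. The fits were tested on simulated data. Figures were drawn with matplotlib 3.10.9.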

Additional observations from a re-analysis of the deposited data

Results flagged for a closer look

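The 22 quantities (members given by library and the shares of counts) in 4 groups made 88 sets of values. In these, 3 single values lay far from the others of their group by Dixon's ratio. Chance alone marks about 1 group in 20, and 3 of 88 does not exceed that rate. Normoxia with ABT-263 replicate 2 had a share of counts of the mitochondrially encoded members of 5.54%, against 4.24% to 4.56% in the other 5 libraries of its group. The same library had Sdhaf2 at 63.5 CPM, against 48.9 to 54.0 CPM, and its skeletal muscle markers summed to 2705 CPM. Without it, 51 nuclear members rose and 7 fell in hypoxia with ABT-263, with a median of 0.32. Hypoxia with ABT-263 replicate 4 had Atp5a1 at 192 CPM, against 146 to 159 CPM in the other 4, and it had the lowest mitochondrial share of all libraries, 3.53%.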

How the results depend on the processing

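Counts of nuclear members called in hypoxia with vehicle (36) ranged from 16 to 53 when single libraries were left out, and in hypoxia with ABT-263 (49) from 37 to 58. No nuclear member passed in the other 4 comparisons with any library left out, and no mitochondrially encoded member in any of the 6. With offsets for transcript length, 1 nuclear member passed for ABT-263 averaged over oxygen levels and 1 mitochondrially encoded member, mt-Nd2, in hypoxia with ABT-263. With offsets for length and GC content, 2 mitochondrially encoded members passed with vehicle, mt-Nd2 (−0.27) and mt-Nd4 (−0.31), both above 0 without the offsets, and 5 with ABT-263, while Uqcrb with ABT-263 went to −0.0068. The cause was not tested. Every other setting kept counts within 1.5 times. Without the 3 libraries with conflicting labels the nuclear counts were 25 and 37, and with treatment read from the tag 47 and 42. Group means of both shares of counts moved by less than 1 SD without any 1 library or with the tag.

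No paired analysis was possible because the labels give no replicate numbers. Low counts limit Ndufaf6, Sdhaf3 and Atp5l, which are under 10 CPM on average over all libraries. The expected counts of Atp5l were fractional in most libraries, such as 71.86 and 48.9 in normoxia vehicle replicates 1 and 2. Whether reads that fit several genes bear on its level was not tested. The 9 untested members allow no statement.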
